A study of Mus musculus with 12 samples.

Results

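The 10 adipogenic transcription factors *Pparg*, *Cebpa*, *Cebpb*, *Cebpd*, *Klf15*, *Klf9*, *Rxra*, *Rxrg*, *Ebf1* and *Stat5a* were followed in inguinal white adipose tissue (iWAT), a subcutaneous fat depot of the mouse that turns on heat production in the cold. They were taken by symbol, and all 10 were among the 14159 genes of the normalized count values and among the 13404 genes that passed a filter on low expression. RNA of whole iWAT was sequenced from Atf4AKO mice, in which floxed *Atf4* alleles are combined with *Adipoq*-Cre, and from floxed littermates without Cre (Atf4WT), all on a C57BL/6 background. Mice of either genotype stayed at room temperature (RT) or spent 24 h in the cold, and each of the 4 groups comprised 3 biological replicates, numbered 0, 1 and 2. The *Adipoq* promoter drives Cre in adipocytes, so the other cells of the tissue keep intact *Atf4*, and the age of these mice is not given in the sources used here.

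Fat cells arise from progenitors through a cascade of transcription factors. C/EBPβ and C/EBPδ are early factors that turn on PPARγ and C/EBPα, and these sustain each other and most genes of the mature fat cell. PPARγ binds DNA as a heterodimer with a retinoid X receptor (RXR), while EBF1, STAT5A and the Krüppel-like factors KLF9 and KLF15 act at several steps around this core. C/EBPβ is also known from thermogenic fat, where it acts beside PRDM16.

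The listed genes held between 25719476 and 29105147 reads in each library. *Atf4*, the deleted gene, had 5669, 4670 and 4107 normalized counts in Atf4WT at RT and 1594, 1470 and 1639 in Atf4AKO at RT. After cold exposure it had 7644, 7511 and 5756 in Atf4WT and 1578, 788 and 1180 in Atf4AKO, so that every Atf4AKO library lay below every Atf4WT library. *Ucp1*, the uncoupling protein gene that marks cold-exposed beige fat, had at most 1097 normalized counts in an RT library and at least 73632 in a cold-exposed one. All 10 adipocyte markers were listed, and they summed to between 685868 and 1120697 normalized counts per library.

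Other cells of the tissue differed between the libraries. The 13 listed B cell markers summed to between 4567 and 16250 normalized counts in cold-exposed Atf4WT, to at most 417 in cold-exposed Atf4AKO, and to 4722 in replicate 2 of Atf4WT at RT against at most 734 in the other RT libraries. The 18 T cell markers summed to 1567, 10492 and 12216 in cold-exposed Atf4WT and to between 313 and 1378 elsewhere. The 9 stromal progenitor markers, which are genes of fibroblast-like cells that can become adipocytes, summed to between 125101 and 184929 in the RT libraries and to between 33669 and 86899 in the cold-exposed ones. The 11 listed macrophage markers were lowest in replicate 1 of both cold-exposed groups, at 15017 in Atf4WT and 6011 in Atf4AKO. The 5 listed skeletal muscle markers summed to 80561 in replicate 2 of Atf4WT at RT and 29993 in replicate 0 of cold-exposed Atf4WT, against at most 4928 in the other libraries. The 3 listed lymph node stroma markers summed to between 607 and 1623 in cold-exposed Atf4WT and to at most 528 elsewhere. The 6 endothelial markers summed to between 14964 and 20101. The 2 listed epithelial markers summed to between 36.2 and 55.8 at RT, 30.1 and 34.9 in cold-exposed Atf4WT, and 13.6 and 51.02 in cold-exposed Atf4AKO. Another 12 chosen markers are not listed, among them the muscle genes *Ckm* and *Myh4* and the lymph node genes *Ccl19* and *Ccl21a*.

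**Figure D1:**
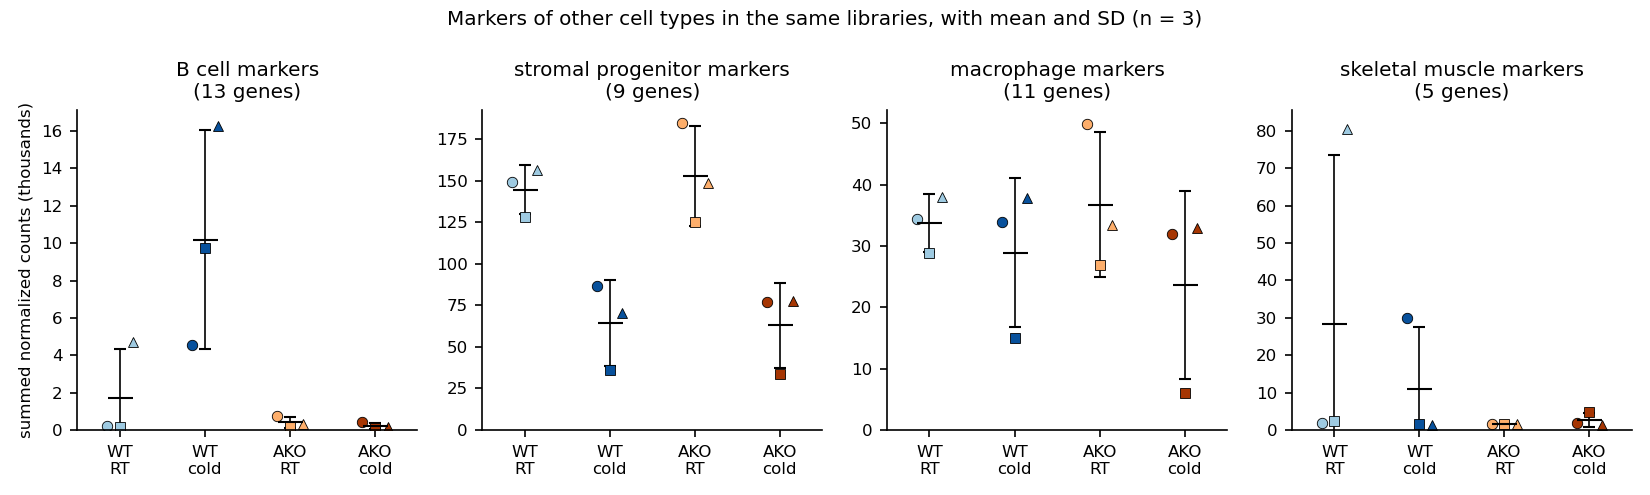
Summed normalized counts (divided by 1000, linear axis from 0) of the B cell, stromal progenitor, macrophage and skeletal muscle markers in each library of Atf4WT (blue) and Atf4AKO (orange) iWAT at RT and after cold exposure, where circles, squares and triangles are replicates 0, 1 and 2 and bars give the mean and SD (n = 3). The stromal progenitor markers of every cold-exposed library lie at or below 86899, under every RT library, and the muscle markers stand out in 2 Atf4WT libraries.

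To compare the factors with each other, the normalized counts were divided by the length of the joined exons of each gene. *Cebpa* was the most abundant factor in every group, with 12298 ± 2687 normalized counts per kb (SD, n = 3) in Atf4WT at RT and 15048 ± 712 in cold-exposed Atf4AKO, and its lowest library stood above the highest library of every other factor. *Pparg* came next at RT, with 2717 ± 844 per kb in Atf4WT and 3168 ± 310 in Atf4AKO. After cold exposure the means of *Cebpb* were above those of *Pparg*, at 2799 ± 131 against 2710 ± 246 per kb in Atf4WT and 3373 ± 331 against 2985 ± 768 in Atf4AKO, but the libraries of these genes overlapped in both groups. At RT *Cebpb* had 1487 ± 432 per kb in Atf4WT and 1992 ± 572 in Atf4AKO, below *Pparg* in every library of these groups. *Klf15*, *Rxra* and *Klf9* had means between 886 and 1724 per kb, and *Klf15* and *Rxra* overlapped in each of the 4 groups. In Atf4WT at RT the means of *Klf15* (1575) and *Rxra* (1540.5) were above that of *Cebpb*, and *Rxra* and *Cebpb* overlapped in both RT groups. *Rxrg* (416 to 656), *Stat5a* (336 to 455) and *Ebf1* (261 to 316) were lower. At RT neither *Rxrg* and *Stat5a* nor *Stat5a* and *Ebf1* were separated, whereas after cold exposure the libraries of these 3 genes did not overlap within a genotype. *Cebpd* had the lowest mean in every group, between 148 ± 25.8 per kb in cold-exposed Atf4WT and 248 ± 90.7 in Atf4AKO at RT.

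**Figure D2:**
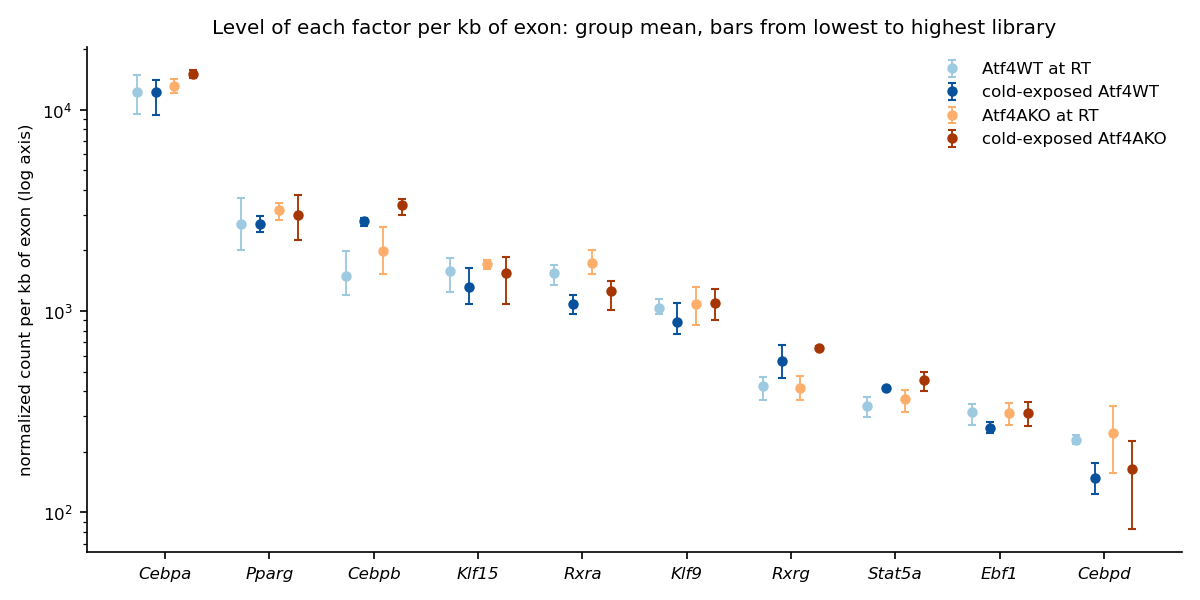
Normalized counts per kb of exon (log axis) of the 10 factors, in order of their mean over the 12 libraries, where points are group means, colored by group, and bars run from the lowest to the highest of 3 libraries. *Cebpa* stands alone at the top, above 9392 per kb in every library, and *Cebpd* has the lowest mean in every group.

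To find which factors respond to cold, cold-exposed iWAT was compared with RT iWAT within each genotype, with limma on log2(normalized count + 1). The p-values were adjusted by Benjamini-Hochberg across the 13404 tested genes. In Atf4WT 1 factor rose (*Cebpb*), 1 fell (*Rxra*) and 8 did not pass the adjusted threshold of 0.05. Among all tested genes 17% rose and 14.9% fell in this comparison, so the factors were called at about the rate of other genes. In Atf4AKO 2 factors rose (*Cebpb* and *Rxrg*), 1 fell (*Rxra*) and 7 did not pass, against 14.8% of all tested genes that rose and 11% that fell. With the libraries rescaled to the same 75th percentile, 1715 genes rose and 1975 fell in Atf4AKO in place of 1988 and 1479, and the calls of the 3 factors were kept. The median log2 fold change of the 10 factors was -0.12 in Atf4WT and 0.02 in Atf4AKO, beside 0.00 and -0.03 for all tested genes. In each genotype the cold-exposed and RT libraries did not overlap for 4 of the 10 factors, a state found for 46.8% of all tested genes in Atf4WT and 41.7% in Atf4AKO. The threshold for differentially expressed genes (DEGs) in the methods of the study asks for more than a 1.5-fold change and an unadjusted p below 0.05. The study used it with DESeq2, and here it was applied to the limma fold changes and p-values. By this threshold 1 factor passed in Atf4WT (*Cebpb*) and 2 in Atf4AKO (*Cebpb* and *Rxrg*), where 21.2% and 17.2% of all tested genes passed. These values come from whole tissue, in which fewer cells of a type and less RNA per cell cannot be told apart.

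**Figure D3:**
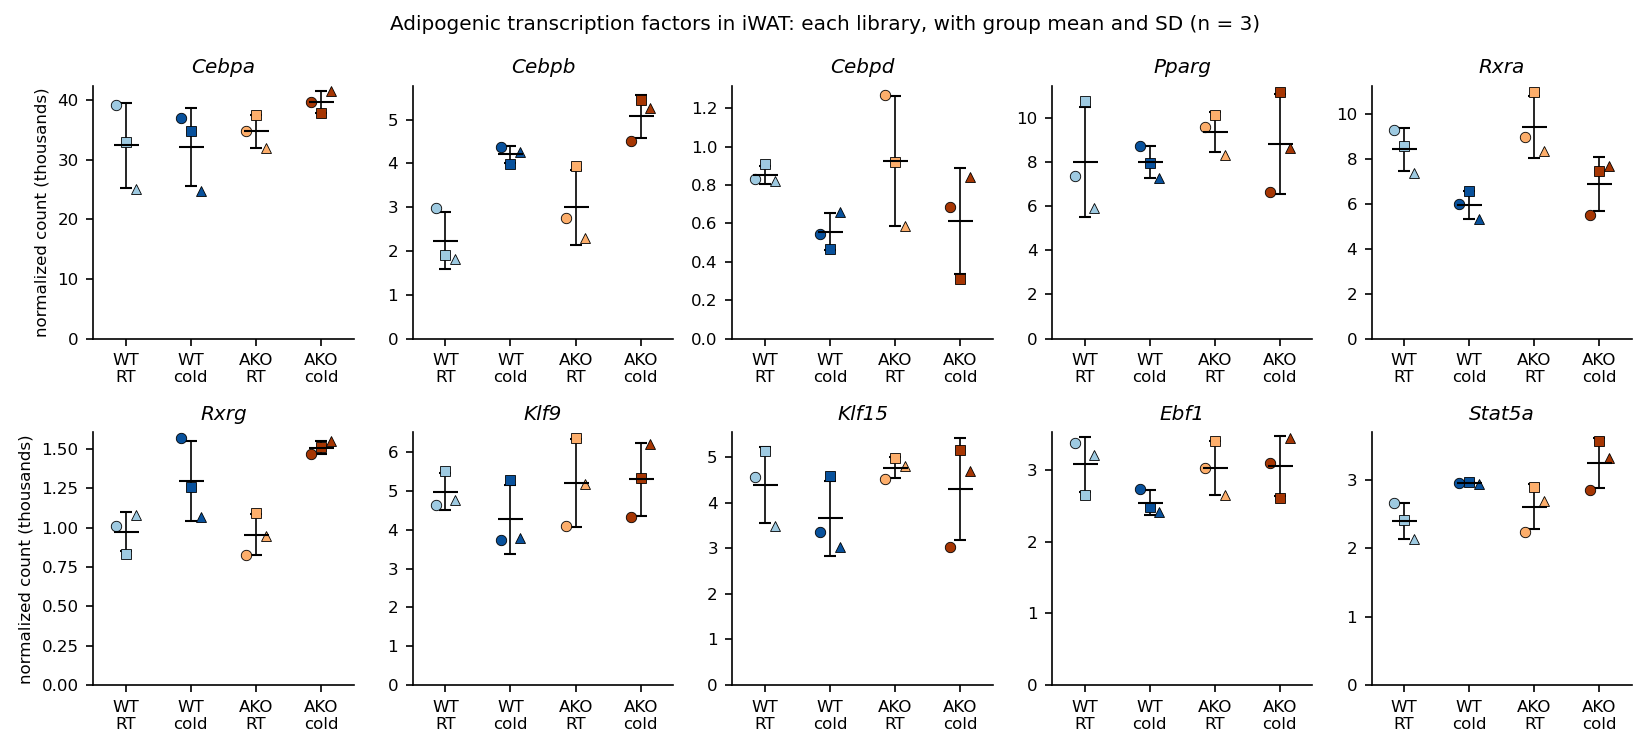
Normalized counts (divided by 1000, linear axes from 0) of each factor in the 12 libraries, with the mean and SD of each group (n = 3), where circles, squares and triangles are replicates 0, 1 and 2 of Atf4WT (blue) and Atf4AKO (orange). The cold-exposed libraries of *Cebpb* (at least 3991) lie above the RT libraries (at most 3953) and those of *Rxra* below the RT libraries of the same genotype.

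*Cebpb* (NM_001287738, chromosome 2, plus strand, 167688915 to 167690418 in mm10) is a gene of 1 exon that encodes C/EBPβ. Its normalized counts were 2983, 1911 and 1813 in Atf4WT at RT and 4374, 3991 and 4262 after cold exposure. In Atf4AKO they were 2748, 3953 and 2287 at RT and 4507, 5442 and 5269 after cold exposure. In both genotypes each cold-exposed library was above each RT library, and the 3 cold-exposed Atf4WT libraries were close together. *Cebpb* rose 1.93-fold in Atf4WT (log2 fold change 0.95, standard error 0.21, limma adjusted p = 0.00628) and 1.73-fold in Atf4AKO (log2 fold change 0.79, standard error 0.21, limma adjusted p = 0.0183). In Atf4WT the limma adjusted p was 0.0521 (log2 fold change 0.79) without both libraries rich in muscle markers. In Atf4AKO the limma call was lost without RT replicate 0 (adjusted p = 0.0622), RT replicate 2 (0.0628), cold replicate 1 (0.0602) or cold replicate 2 (0.0525), with log2 fold changes of 0.62 or more. *Cebpb* shares 312 bp of exon with *Tmem189* on the other strand, and the strand setting of the counting is not given, so reads of the shared stretch cannot be told apart.

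*Cebpd* (NM_007679, chromosome 16, plus strand, 15887286 to 15891031) encodes C/EBPδ, the partner of C/EBPβ at the start of adipogenesis. It had 833, 908 and 822 normalized counts in Atf4WT at RT and 548, 464 and 657 after cold exposure. The Atf4AKO libraries had 1269, 923 and 589 at RT and 684, 308 and 844 after cold exposure. The groups did not overlap in Atf4WT, whereas in Atf4AKO they did and a single cold-exposed library, replicate 1, was far below the rest. The log2 fold changes were -0.63 in Atf4WT (95% interval -1.39 to 0.13, limma adjusted p = 0.185) and -0.65 in Atf4AKO (-1.41 to 0.11, limma adjusted p = 0.188), and neither was called. A model of only the Atf4WT groups gave a limma adjusted p of 0.0196 for the same difference, within a range of 0.0196 to 0.381 over 22 alternatives. Without replicate 1 of cold-exposed Atf4AKO the log2 fold change in that genotype was -0.22. That library also had the lowest sums of stromal progenitor markers (33669) and macrophage markers (6011), whose part in the *Cebpd* value was not tested. *Cebpd* shares 562 bp of exon with *Spidr* on the other strand.

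*Cebpa* (NM_007678, chromosome 7, plus strand, 35119293 to 35121928) encodes C/EBPα, which maintains the mature fat cell. It had 39180, 33019 and 25053 normalized counts in Atf4WT at RT and 36950, 34839 and 24757 after cold exposure, a log2 fold change of -0.01 (95% interval -0.41 to 0.39). In Atf4AKO it had 34827, 37574 and 31925 at RT and 39660, 37792 and 41545 after cold exposure. The latter 3 libraries were above the 3 at RT, yet the log2 fold change of 0.19 (95% interval -0.21 to 0.59, limma adjusted p = 0.463) was not called. *Cebpa* shares 51 bp of exon with the antisense gene *Gm45091*.

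*Pparg* (NM_001127330, chromosome 6, plus strand, 115360951 to 115490399) encodes PPARγ, the receptor without which fat cells do not form. Its normalized counts were 7355, 10781 and 5935 in Atf4WT at RT and 8752, 7949 and 7302 after cold exposure. In Atf4AKO they were 9604, 10116 and 8340 at RT and 6646, 11172 and 8629 after cold exposure. The cold-exposed libraries lay within or around the range of the RT libraries in both genotypes. The log2 fold changes were 0.04 (95% interval -0.44 to 0.52, limma adjusted p = 0.916) in Atf4WT and -0.11 (-0.59 to 0.37, limma adjusted p = 0.732) in Atf4AKO. Over 22 alternatives the Atf4WT value ranged from -0.225 to 0.755 and was never called. The highest came with the mean log2 value of the B and T cell markers of a library as a covariate (limma adjusted p = 0.0723). That covariate did not overlap between the Atf4WT groups.

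*Rxra* (NM_011305, chromosome 2, plus strand, 27676440 to 27762957) encodes RXRα, a broadly expressed partner of PPARγ. It had 9292, 8569 and 7382 normalized counts in Atf4WT at RT and 5998, 6559 and 5304 after cold exposure. In Atf4AKO it had 8949, 10954 and 8341 at RT and 5518, 7443 and 7699 after cold exposure. Each cold-exposed library was below each RT library of its genotype. *Rxra* fell by 0.50 on the log2 scale in Atf4WT (standard error 0.15, 1.41-fold lower, limma adjusted p = 0.027) and by 0.46 in Atf4AKO (standard error 0.15, 1.37-fold lower, limma adjusted p = 0.0451). In Atf4WT the limma call was lost without RT replicate 0 (adjusted p = 0.0967), RT replicate 1 (0.0757), cold replicate 0 (0.0548) or cold replicate 2 (0.0922). With the lymphocyte score, the mean log2 value of the B and T cell markers of a library, as a covariate the difference in Atf4WT was -0.11 (limma adjusted p = 0.771, the highest of 22 alternatives, the lowest being 0.0069 with DESeq2). That score was between 3.78 and 6.85 in Atf4WT at RT and between 7.01 and 9.57 after cold exposure, so it was separated between these groups as *Rxra* was. In Atf4AKO, where the score ranged from 4 to 5.14 at RT and from 3.34 to 4.88 after cold exposure, the limma call was lost without any of 7 libraries, namely Atf4WT RT replicate 0 (adjusted p = 0.0535) or 1 (0.0605), Atf4AKO RT replicate 0 (0.0859) or 1 (0.148), Atf4WT cold replicate 0 (0.058), and Atf4AKO cold replicate 0 (0.138) or 1 (0.0613). A model of only the Atf4AKO groups gave an adjusted p of 0.086 and one without both libraries rich in muscle markers 0.0563, and in neither genotype did *Rxra* reach the 1.5-fold change of the DEG threshold.

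*Rxrg* (NM_009107, chromosome 1, plus strand, 167598384 to 167639623) encodes RXRγ, a receptor of the same family with a narrower expression across tissues. It had 1011, 834 and 1077 normalized counts in Atf4WT at RT and 1567, 1255 and 1064 after cold exposure, and the lowest cold-exposed library was just below the highest RT library. In Atf4AKO it had 827, 1090 and 948 at RT and 1465, 1509 and 1547 after cold exposure, which did not overlap. *Rxrg* rose 1.59-fold in Atf4AKO (log2 fold change 0.67, standard error 0.15, limma adjusted p = 0.0079), and its adjusted p stayed between 0.000482 (DESeq2) and 0.0365 (limma without RT replicate 0) over 22 alternatives. In Atf4WT the log2 fold change of 0.40 (standard error 0.15, limma adjusted p = 0.0597) was not called. It was called with DESeq2 on the recovered reads (adjusted p = 0.0356) and with limma when replicate 2 of cold-exposed Atf4WT was left out (adjusted p = 0.0251, log2 fold change 0.53). The difference between the genotypes in this cold response was 0.26 on the log2 scale (95% interval -0.20 to 0.73, limma adjusted p = 0.989), so a larger rise in Atf4AKO was not shown.

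In Atf4AKO *Rxra* fell and *Rxrg* rose, while in Atf4WT *Rxra* fell and *Rxrg* was not called. The ratio of these genes within a library does not depend on how the libraries are scaled. This ratio and those of *Cebpb* below were chosen after the values were seen and are given without a test. They restate the counts given above, and the share of other gene pairs separated in this way was not computed. Per kb of exon, *Rxrg* relative to *Rxra* was 0.259, 0.232 and 0.347 in Atf4WT at RT and 0.621, 0.455 and 0.477 after cold exposure. In Atf4AKO it was 0.22, 0.237 and 0.27 at RT and 0.631, 0.482 and 0.478 after cold exposure. The lowest of the 6 cold-exposed libraries was 0.455 and the highest of the 6 RT libraries 0.347, so *Rxra* remained the more abundant of the pair in all 12 libraries while its excess became smaller. *Cebpb* relative to *Cebpa* was between 0.101 and 0.184 in the RT libraries and between 0.199 and 0.302 in the cold-exposed ones. *Cebpb* relative to *Cebpd* was between 5.25 and 10.7 at RT and between 15.6 and 44 after cold exposure, the highest value being that of replicate 1 of cold-exposed Atf4AKO.

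**Figure D4:**
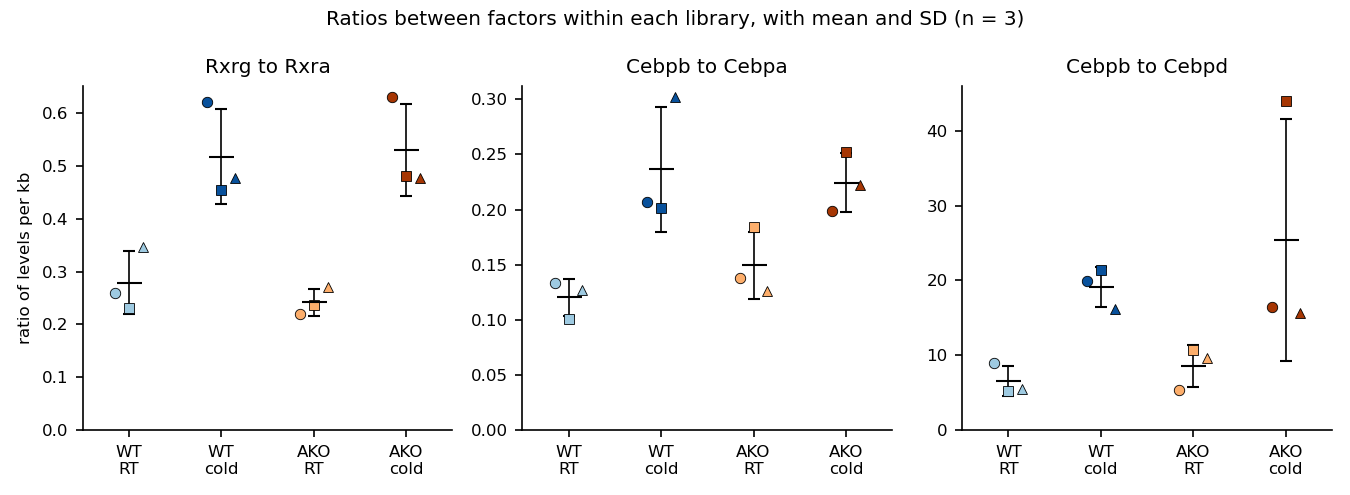
Ratios of levels per kb of exon within each library (linear axes from 0), with the mean and SD of each group (n = 3) and symbols as in the plot of the 10 factors. For each of the 3 ratios, chosen after the values were seen, every cold-exposed library lies above every RT library. For *Rxrg* to *Rxra* these were at least 0.455 against at most 0.347.

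*Klf15* (NM_001355668, chromosome 6, plus strand, 90462576 to 90475238) encodes a glucocorticoid-induced factor that acts on *Pparg* and on lipid and amino acid metabolism. Its normalized counts were 4567, 5130 and 3490 in Atf4WT at RT and 3362, 4591 and 3026 after cold exposure, and in Atf4AKO 4515, 4980 and 4819 at RT and 3036, 5163 and 4694 after cold exposure. The groups overlapped in both genotypes, with log2 fold changes of -0.27 (95% interval -0.73 to 0.20) and -0.19 (-0.65 to 0.28). *Klf9* (NM_010638, chromosome 19, plus strand, 23141226 to 23168134), which is induced by glucocorticoids too, had 4647, 5523 and 4768 normalized counts in Atf4WT at RT and 3726, 5292 and 3784 after cold exposure. The Atf4AKO libraries had 4102, 6360 and 5177 at RT and 4335, 5343 and 6224 after cold exposure. These groups also overlapped, with log2 fold changes of -0.24 (-0.65 to 0.17) in Atf4WT and 0.03 (-0.38 to 0.44) in Atf4AKO.

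*Ebf1* (NM_001362571, chromosome 11, plus strand, 44617317 to 45008091) encodes early B cell factor 1, which acts both in fat cell and in B cell development. It had 3380, 2655 and 3212 normalized counts in Atf4WT at RT and 2746, 2485 and 2414 after cold exposure, where the highest cold-exposed library was just above the lowest RT library. The Atf4AKO libraries had 3038, 3414 and 2657 at RT and 3109, 2615 and 3445 after cold exposure. The log2 fold changes were -0.27 (95% interval -0.55 to 0.01, limma adjusted p = 0.133) in Atf4WT and 0.01 (-0.28 to 0.29, limma adjusted p = 0.969) in Atf4AKO. The cold-exposed Atf4WT libraries, which had the lowest mean of *Ebf1*, had B cell marker sums of 4567, 9764 and 16250, and those of cold-exposed Atf4AKO had at most 417. What B cells added to the *Ebf1* counts was not tested.

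*Stat5a* (NM_011488, chromosome 11, plus strand, 100859351 to 100885169) encodes a factor through which growth hormone and prolactin act in fat. It had 2660, 2406 and 2133 normalized counts in Atf4WT at RT and 2955, 2969 and 2934 after cold exposure, which did not overlap. In Atf4AKO it had 2239, 2887 and 2680 at RT and 2848, 3570 and 3321 after cold exposure, with the lowest cold-exposed library just below the highest RT library. The log2 fold changes of 0.31 (95% interval 0.05 to 0.56, limma adjusted p = 0.0646) and 0.32 (0.07 to 0.57, limma adjusted p = 0.062) were not called. DESeq2 called them in Atf4WT (adjusted p = 0.0495) and in Atf4AKO (adjusted p = 0.0415). With limma *Stat5a* was called in Atf4WT without replicate 0 of Atf4AKO at RT (adjusted p = 0.0464) and with the lymphocyte score (0.0366), in a range of 0.0366 to 0.273 over 22 alternatives, and in Atf4AKO without RT replicate 1 (0.0457) or cold replicate 0 (0.032). *Stat5a* shares 72 bp of exon with its neighbor *Stat3* on the other strand.

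To ask whether adipocyte ATF4 bears on these factors, Atf4AKO was compared with Atf4WT iWAT in each condition. No factor was called after cold exposure, where limma called 0.0298% of all tested genes, and none at RT, where it called 0.00746%. None of the 10 had an unadjusted limma p-value under 0.05 in either comparison, and none was called with edgeR or DESeq2. No factor passed the DEG threshold, which 6.4% of all tested genes passed after cold exposure and 0.463% at RT. After cold exposure all 10 log2 differences were above 0, from 0.03 for *Cebpd* to 0.32 for *Cebpa*, with a median of 0.23 beside 0.05 over all tested genes, of which 59.3% were above 0. *Cebpa* and *Cebpb* were the 2 factors whose cold-exposed groups did not overlap, a state found for 16.5% of all tested genes, and at RT no factor and 6.3% of all tested genes were separated. The 25 target genes of PPARγ and C/EBPα and the 10 adipocyte markers were also all above 0 after cold exposure, with medians of 0.23 and 0.24, and none of them was called. These lists share genes, among them *Plin1*, so they are not separate observations.

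The B cell markers were below 0 for 13 of 13 genes in the same comparison (median -5.70) and the T cell markers for 18 of 18 (median -3.72), with none called. With the lymphocyte score as a covariate 4 of the 10 factors were above 0. The score did not overlap between the cold-exposed genotypes (7.01 to 9.57 in Atf4WT and 3.34 to 4.88 in Atf4AKO), so the genotype and the lymphocyte content cannot be told apart there. Rescaling to the 75th percentile left 9 of the 10 above 0, as did leaving out any of 4 cold-exposed libraries (replicate 1 of Atf4WT and replicates 0, 1 and 2 of Atf4AKO). At RT 8 of the 10 differences were above 0, and the largest was 0.42 for *Cebpb* (95% interval -0.04 to 0.88, limma adjusted p = 1). The cold responses of the 2 genotypes differed for no factor (interaction in limma, lowest adjusted p = 0.949), as for 0% of all tested genes, with an unadjusted p under 0.05 for 0 factors and 928 genes. DESeq2 called 132 genes and edgeR called 0 genes in the interaction, none of them a factor. The interaction ranged from -0.16 for *Cebpb* to 0.28 for *Ebf1* on the log2 scale.

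**Figure D5:**
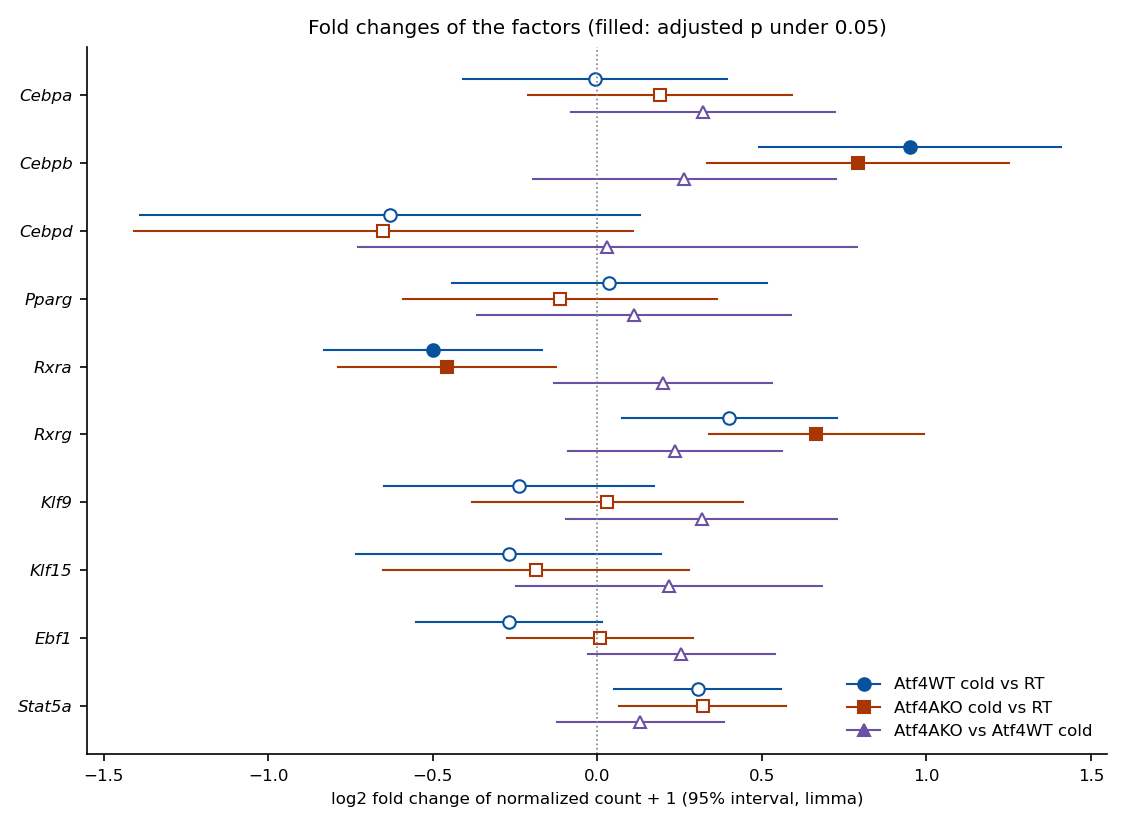
Log2 fold changes of the 10 factors with 95% intervals (limma, 3 libraries a group) for cold exposure in Atf4WT (circles), cold exposure in Atf4AKO (squares) and Atf4AKO against Atf4WT after cold exposure (triangles). Filled symbols have an adjusted p under 0.05: *Cebpb* and *Rxra* in both genotypes and *Rxrg* in Atf4AKO, while every interval of the genotype comparison includes 0.

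The 250 bases before the annotated start are shown for the 3 factors called in a cold response, because *Cebpb* rose and *Rxra* fell in both genotypes and *Rxrg* rose in Atf4AKO. They were read from RefSeq for GRCm38.p6, in which 9 of the 10 factors had a window, and the start of lowest coordinate was taken where a gene had more than 1. Windows were searched on both strands for TGACGTCA (the cAMP response element), its shorter form TGACG, which lies within it, TGATGCAA (a composite C/EBP and ATF element), CCAAT, the TATA box TATAAA and the GC box GGGCGG. Matches are in capitals. The *Cebpb* window is chr2:167688665-167688914, the *Rxra* window chr2:27676951-27677200 and the *Rxrg* window chr1:167598112-167598361, all on the plus strand. The *Cebpb* window lies in an intron of *Tmem189*, a protein-coding gene on the other strand. The *Rxra* window lies in an intron of another annotated *Rxra* transcript, and none of the 3 windows overlaps an exon.
Cebpb: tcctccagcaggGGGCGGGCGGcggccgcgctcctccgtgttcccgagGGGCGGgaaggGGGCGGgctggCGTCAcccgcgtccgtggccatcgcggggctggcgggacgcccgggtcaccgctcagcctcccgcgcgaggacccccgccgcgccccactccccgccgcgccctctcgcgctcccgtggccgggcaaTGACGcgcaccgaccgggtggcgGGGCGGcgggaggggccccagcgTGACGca
Rxra: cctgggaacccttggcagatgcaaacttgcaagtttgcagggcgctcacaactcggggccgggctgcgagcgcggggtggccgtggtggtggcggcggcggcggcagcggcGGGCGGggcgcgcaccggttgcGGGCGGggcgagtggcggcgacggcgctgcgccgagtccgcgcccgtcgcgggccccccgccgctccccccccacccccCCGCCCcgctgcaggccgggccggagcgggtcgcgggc
Rxrg: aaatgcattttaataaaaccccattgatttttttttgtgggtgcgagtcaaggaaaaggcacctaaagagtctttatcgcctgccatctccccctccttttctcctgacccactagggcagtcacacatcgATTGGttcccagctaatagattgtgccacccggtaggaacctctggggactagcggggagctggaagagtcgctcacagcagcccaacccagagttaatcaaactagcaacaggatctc
The *Cebpb* window held TGACG 3 times, starting 180, 53 and 7 bases before the start, and GGGCGG 5 times, of which the first 2 overlap. The *Rxra* window held GGGCGG 3 times and the *Rxrg* window CCAAT once, on the minus strand, 119 bases before the start. Among the 32851 windows of this length in the table, TGACG was in 17.8%, GGGCGG in 32.7%, CCAAT in 33.8% and TATAAA in 12.4%, so each of these matches is common. TGACGTCA (1.55% of windows) and TGATGCAA (0.791%) were in none of the 15 windows of the 9 factors. The bases G and C made up 81.6% of the *Cebpb* window, 81.2% of the *Rxra* window and 49.2% of the *Rxrg* window, with a median of 52.4% over all windows. A match is a run of letters and not a measured site.

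For the 3 called factors the genes with the most similar profile were sought among the 11841 genes whose mean normalized count reached 50, by the root mean square (RMS) difference of the log2 values centered on each gene over the 12 libraries. Closest to *Cebpb* were *Sephs2*, for a selenophosphate synthetase, at an RMS difference of 0.18, and *Hsd17b12*, for an enzyme of fatty acid elongation, at 0.18, beside a median of 0.57 over all genes compared. *Hsd17b12* had group means of 8517 and 10702 normalized counts at RT and 17481 and 22236 after cold exposure in Atf4WT and Atf4AKO. Closest to *Rxra* were *Raver2* (0.09) and *Acy3* (0.10), with a median of 0.38 over all genes. Closest to *Rxrg* were *Mapkapk2*, a kinase gene of the p38 pathway, at 0.10 and *Sar1b*, for a GTPase of vesicle transport, at 0.12, with a median of 0.39. *Mapkapk2* rose from 4199 to 5880 normalized counts in the group means of Atf4WT and from 4391 to 6873 in Atf4AKO.

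The families of these factors showed mixed responses to cold. Of the C/EBP relatives, all 3 tested genes rose in Atf4WT and 2 rose in Atf4AKO, with median log2 fold changes of 0.40 and 0.31. They were *Ddit3* (0.76 and 0.73, limma adjusted p = 0.0136 and 0.0195), whose product CHOP inhibits other C/EBPs, *Cebpg* (0.29 and 0.31, limma adjusted p = 0.0255 and 0.0246), and *Cebpz*, which passed in Atf4WT (0.40, limma adjusted p = 0.00987) and had 0.28 in Atf4AKO (limma adjusted p = 0.0527). Of 12 tested KLF relatives, *Klf14* (-2.61, limma adjusted p = 0.00488, from a mean of 61.4 to 11.5 normalized counts) and *Klf6* (-0.63, limma adjusted p = 0.0241) fell in Atf4WT. None passed in Atf4AKO, where 11 of 12 values were below 0 and the median was -0.31. *Klf14* had -1.16 there (limma adjusted p = 0.14), and its interaction was not called (1.45, limma adjusted p = 0.833). None of the 3 EBF relatives passed in either genotype, although *Ebf2*, a factor of beige adipocytes, had -0.48 in Atf4WT (limma adjusted p = 0.0548). Among the STAT relatives, *Stat3* fell in both genotypes (-0.48 and -0.55, limma adjusted p = 0.002 and 0.0011). *Stat6* fell in Atf4WT (-0.32, limma adjusted p = 0.0237) and had -0.27 in Atf4AKO (limma adjusted p = 0.053). *Stat4*, a lymphocyte gene, rose in Atf4WT (2.24, limma adjusted p = 0.0239), where the B and T cell markers were high.

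Among the 11 other RXR relatives and partners, 4 rose and 1 fell in Atf4WT, and 5 rose and 2 fell in Atf4AKO, with median log2 fold changes of 0.20 and 0.39. *Rxrb*, the remaining RXR gene, rose in both genotypes (0.36 and 0.39, limma adjusted p = 0.0103 and 0.00845). *Ppara*, for the receptor of fatty acid oxidation genes, rose from a mean of 1012 to 2414 normalized counts in Atf4WT (log2 fold change 1.27, limma adjusted p = 0.00371) and from 926 to 3122 in Atf4AKO (1.74, limma adjusted p = 0.000847). *Thra*, for thyroid hormone receptor α, fell in both (-0.69 and -0.53, limma adjusted p = 0.000819 and 0.0039). *Nr1h3*, for the oxysterol receptor LXRα, rose in Atf4WT (0.45, limma adjusted p = 0.0187). In Atf4AKO its group means were 3584 at RT and 4925 after cold exposure. *Rarb*, for a retinoic acid receptor, rose in Atf4AKO (0.85, limma adjusted p = 0.00156). No difference between the genotypes was called for its cold response (interaction 0.36, limma adjusted p = 0.841). Only genes with the smallest p-values of a comparison are named, so neither rise is shown to be limited to 1 genotype.

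Of 25 other regulators of adipogenesis and fat cell identity, 4 rose and 3 fell in Atf4WT and 5 rose and 1 fell in Atf4AKO, with medians of -0.01 and 0.05. The coactivator gene *Ppargc1a* rose from a mean of 328 to 1322 normalized counts in Atf4WT (log2 fold change 2.01, limma adjusted p = 0.000305) and from 291 to 1799 in Atf4AKO (2.57, limma adjusted p = 8.13e-05). Its relative *Ppargc1b* rose as well (1.62 and 2.15, limma adjusted p = 0.000367 and 8.03e-05). *Zfp423*, which keeps adipocytes in the white state, fell from 1394 to 708 in Atf4WT (-0.97, limma adjusted p = 0.00072). In Atf4AKO its group means also went down, from 1225 at RT to 875 after cold exposure. The interaction was not called (0.49, limma adjusted p = 0.612), so a fall limited to Atf4WT was not shown. Of 15 repressors of adipogenesis, 2 rose and 3 fell in Atf4WT and 1 rose and 3 fell in Atf4AKO, with medians of -0.49 and -0.30. *Tcf7l1* (-0.76 and -0.46, limma adjusted p = 0.00305 and 0.0398) and *Twist1* (-0.53 and -0.35, limma adjusted p = 0.00536 and 0.0435) fell in both genotypes, as did the preadipocyte gene *Dlk1* (-1.87 and -2.14, limma adjusted p = 0.0171 and 0.0108), which had a mean of 41 normalized counts or fewer in every group. The stromal progenitor markers were below 0 for 9 of 9 genes in each genotype (medians -1.11 and -1.08), with *Col3a1* and *Lum* called in both, and their part in the values of these repressors was not tested.

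Of 25 target genes of PPARγ and C/EBPα, 5 rose and 2 fell in Atf4WT and 5 rose and none fell in Atf4AKO, with medians of 0.00 and 0.13. The lipid droplet gene *Cidea* rose from 3997 to 17852 normalized counts in Atf4WT (log2 fold change 2.16, limma adjusted p = 8.71e-05) and from 4469 to 20626 in Atf4AKO (2.16, limma adjusted p = 8.73e-05). *Agpat2*, for an enzyme of triglyceride synthesis, rose by 1.63 and 1.62 on the log2 scale (limma adjusted p = 0.000633 and 0.000745), and *Fabp5* and *Gpd1* rose in both genotypes as well. Of the 10 adipocyte markers 3 fell in Atf4WT, *Adipoq* (-0.60, limma adjusted p = 0.0148), *Adrb3* (-1.04, limma adjusted p = 0.0163) and *Plin4* (-0.71, limma adjusted p = 0.0285). None passed in Atf4AKO, where *Adrb3* had -0.76 (limma adjusted p = 0.0665) and *Adipoq* -0.36 (limma adjusted p = 0.119). The interaction was called for 0 of the 10, so a fall limited to Atf4WT was not shown. Of the 14 glucocorticoid-induced genes, a list drawn up beside *Klf9* and *Klf15*, 1 rose and 2 fell in Atf4WT and 1 rose and 1 fell in Atf4AKO, with medians of -0.36 and -0.13. *Pdk4* rose in both (1.69 and 2.15, limma adjusted p = 0.0111 and 0.00401), and the metallothionein gene *Mt2* fell in both (-1.94 and -1.20, limma adjusted p = 0.000866 and 0.0123). Of 10 target genes of STAT5, 4 rose in Atf4WT and 2 in Atf4AKO and none fell, with medians of 0.78 and 0.07. The kinase gene *Pim1* (1.92 and 1.62, limma adjusted p = 4.35e-05 and 0.000102) and the repressor gene *Bcl6* (1.30 and 1.56, limma adjusted p = 0.00608 and 0.00284) rose in both genotypes. *Socs2* rose in Atf4WT (0.96, limma adjusted p = 0.00386), with no call in its interaction (-0.59, limma adjusted p = 0.732). *Bcl6* is also among the 25 other regulators, and the STAT5 list was not split by whether STAT5 raises or lowers a gene. Several genes of the STAT5 list are also expressed by lymphocytes, whose markers were high in cold-exposed Atf4WT, and their part in these values was not tested.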

How the data were processed

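Polyadenylated RNA of iWAT was sequenced from strand-specific libraries of 12 samples, grouped by the genotype and temperature in the labels. The authors used SOAPnuke to filter reads, STAR to map them to mm10 and featureCounts to count those mapped uniquely. They deposited a normalized signal, in which pyDESeq2 had scaled the reads of each library by its size factor. The processing notes of the submitters name the same build, STAR, featureCounts and DESeq2. Versions and the strand setting are not given in the sources used here. Every listed gene has 1 or more reads in each of the libraries, and genes without a read in 1 or more libraries are not among the values used here. Dividing by the smallest value of a library recovered whole reads in 100% of cases (tolerance 0.001). Replicates are separate biological samples per the labels, and the p-values measure the spread between them.

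limma 3.58.1 (R 4.3.3; lmFit, contrasts.fit, eBayes with trend) was fitted on log2(normalized count + 1). It covered 13404 genes, 755 having a mean normalized count below 10, with the 4 group means and no covariate. The study's DEG threshold, edgeR 4.0.16 (quasi-likelihood) and DESeq2 1.42.0 on the recovered reads, other pseudocounts, no filter, other scaling, a replicate block, the lymphocyte score and leaving out libraries were alternatives. A fold change on this scale slightly understates that of low genes. The fits were tested on simulated data. The 20 gene lists are described by counts and medians. The result of 1 listed gene is not reported here. At most 4 genes of a list are named, those with the smallest p-values, and the 2 genes of most similar profile are named for each called factor. The factors and lists were chosen with earlier results of these data known. Positions and exon lengths came from GENCODE vM21 (mm10), and tables and plots were made in Python 3.11.15 with pandas 2.3.3 and matplotlib 3.10.9.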

Additional observations from a re-analysis of the deposited data

How the results depend on the processing

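In Atf4WT the cold response called 2 of the 10 factors with limma, 4 with DESeq2, 3 in a model of only the groups compared, 1 at the DEG threshold, 1 without both libraries rich in muscle markers (an alternative chosen after the data were seen), and between 1 and 3 when 1 library at a time was left out. In Atf4AKO it called 3 with limma and with edgeR, 4 with DESeq2, 2 at the DEG threshold, 2 in a model of only the groups compared, 2 without both libraries rich in muscle markers, and between 1 and 3 without 1 library. The counts for Atf4AKO against Atf4WT after cold exposure, at RT and for the interaction were 0 under every alternative that was run. Over all tested genes Atf4AKO against Atf4WT after cold exposure gave 4 calls with limma, 3 with edgeR, 31 higher and 559 lower with DESeq2, and 2 higher and 187 lower with the replicate block. Over all single factors, comparisons and alternatives, 1110 of 1140 values kept their direction or had no call on either side, 21 lost their call, 9 gained one and none turned its direction with a call, while 77 changed sign with no call in either fit. Without 1 library the group is carried by 2, and the spread is taken from all groups. The mean levels per kb of the 10 factors moved by less than their SD under 75th percentile scaling. Leaving out 1 library cannot move a mean over all libraries by as much as the SD, so it does not test these levels. The labels tie a replicate number to no shared animal, litter or day, and the deviations of libraries of the same number from their group means correlated between -0.189 and 0.389, not above 0.1 in every pair, so the numbers were not used to pair the samples. The 6 correlations of replicate 1 were all above 0 (0.179 to 0.389), and replicate 1 had the lowest stromal progenitor and macrophage marker sums of each group. The replicate block called 2 factors in Atf4WT, 3 in Atf4AKO and 0 in the genotype and interaction comparisons, and over all tested genes it called 2550 higher and 2308 lower genes in Atf4WT in place of 2273 and 2000. With 3 libraries a group, the differences of *Stat5a* (3 of 22 alternatives called) and *Rxrg* (2 of 22) in Atf4WT lay close to the threshold, while that of *Cebpd* passed it under 1 alternative.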
